A study of Mus musculus with 32 samples.

Results

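The cell bodies of 16 single hippocampal neurons were profiled by RNA sequencing, and they are the 16 of 32 libraries whose label gives the soma as the cell compartment. The other 16 libraries hold dendrites and are not described here. The neurons came from embryonic day 18 C57BL/6 mice and had grown in primary culture for 15 days, with no drug or other agent named in the labels. Soma and dendrites were parted by hand and collected in tubes of their own, and polyadenylated RNA was amplified by aRNA, a linear method in which cDNA is transcribed back into antisense RNA. The somas of neurons 1 to 4 had 3 rounds of aRNA and those of neurons 5 to 16 had 2 rounds. For ERCC spike-in RNA, a mix of synthetic transcripts, the labels give a dilution of 1 in 4000000 for 14 somas and none for neurons 1 and 2. Letters in the sample titles put neurons 1 and 2, 3 and 4, 5 to 8, 9 to 11, 12 to 14, and 15 and 16 together, each set within 1 number of rounds, and what the letters stand for is not stated. The labels name no animal, culture or day for any neuron, so the somas are single cells that may share a culture, and every SD and p-value below measures only the spread between these 16 cells. Cultured embryonic neurons chosen for being isolated on the dish are not a sample of the hippocampus as a whole.

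Most hippocampal neurons are glutamatergic principal cells, which load glutamate into vesicles with the transporters Slc17a7 or Slc17a6 and carry transcription factors such as Neurod6 and Tbr1. GABAergic neurons, the inhibitory cells of the hippocampus, make GABA from glutamate with the glutamate decarboxylases Gad1 and Gad2 and load it into vesicles with Slc32a1. Their subtypes are told apart by peptides, calcium-binding proteins and receptors such as Npy, Sst, Pvalb, Cck, Vip, Reln and Lamp5, and Lhx6 and the Dlx factors mark their origin in the ganglionic eminences.

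Reads had been counted on the 3′UTRs of each gene, and the total per soma ran from 925525 (neuron 2) to 21169974 (neuron 9), with a median of 6165690. A soma held 9206 ± 1644 genes with at least 10 reads (SD, n = 16), from 6041 in neuron 12 to 12185 in neuron 10. Sampled down to the 925525 reads of the shallowest soma, the number was 7235 ± 886. No pair among the 120 pairs of soma libraries held identical counts. Mitochondrially encoded genes took 0.277% (neuron 6) to 8.12% (neuron 16) of the reads, with a median of 1.05%. Levels below are normalized reads, meaning reads divided by the library's median-of-ratios size factor, unless another scale is named.

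All 6 genes set as markers of these cells, Gad1, Gad2, Slc32a1, Lhx6, Dlx1 and the dendritic microtubule protein Map2, had at least 10 reads in 15 of the 16 somas. The exception was the soma of neuron 14, where Lhx6 had 6.60 normalized reads and fewer than 10 reads. Gad1, at chromosome 2, 70553072 to 70602014 (GRCm38), ran from 4999.9 in the soma of neuron 2 to 52371 in that of neuron 6, with a median of 29876. Gad2, at chromosome 2, 22622205 to 22693874, ran from 2157 in the soma of neuron 2 to 27128 in that of neuron 13, with a median of 10591. Both enzymes were lowest in the soma of neuron 2, and the levels of the pair followed each other with Spearman's rho of 0.81 over the 16 somas and 0.77 over the 12 with 2 rounds, a description over cells in which both genes share a library's amplification and depth. The vesicular GABA transporter Slc32a1 ran from 347 in the soma of neuron 5 to 5563 in that of neuron 13, with a median of 3797. Lhx6 otherwise reached 2831 in neuron 6, with a median of 641. Dlx1 ran from 164 in the soma of neuron 14 to 2495 in that of neuron 5, with a median of 856, and Map2 from 370.1 in the soma of neuron 5 to 4679 in that of neuron 1, with a median of 1590.1.

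Of the 18 genes of the GABAergic identity list, 11 had a read in every soma. They include 5 of the markers above, so 6 of the other 13 were in every soma. Between 11 and 18 of the list, with a median of 16, had at least 10 reads in a given soma. Erbb4, the neuregulin receptor of interneurons, ran from 40.2 in the soma of neuron 3 to 3098 in that of neuron 12, with a median of 1807. Some factors of the list were patchy. Nkx2-1, a factor of the medial ganglionic eminence, had at least 10 reads in 5 somas, and Sox6 in 5. Nr2f2, a factor of caudal ganglionic eminence cells, stood at 1710.2 in neuron 12 and at no more than 264 in the others. The mean level over the 18 genes was 3569 ± 1554 (SD, n = 16), from 844 in neuron 2 to 5809.7 in neuron 13.

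Among subtype and peptide genes, 3 of 18 (16.7%) had a read in every soma, Npy, Reln and Pnoc. Of all genes with a read in any soma 16.3% did. Neuropeptide Y (Npy), at chromosome 6, 49822710 to 49829507, ran from 479 in the soma of neuron 2 to 28504 in that of neuron 16, with a median of 6424. Reln, which encodes the secreted glycoprotein reelin, ran from 696 in the soma of neuron 3 to 21612 in that of neuron 8, with a median of 9435, and Pnoc, the precursor of nociceptin, from 114 in the soma of neuron 2 to 3091 in that of neuron 13, with a median of 1983. The remaining members were present in some somas and missing in others. Pvalb, the calcium buffer of fast-spiking interneurons, had at least 10 reads in 12 somas, with 4796 in neuron 3, 4141 in neuron 11 and 1186 in neuron 1, a median of 75.2, and 0 reads in neurons 8 and 13. Lamp5, at chromosome 2, 136052239 to 136069917, had at least 10 reads in 9 somas and stood at 6888, 5549, 2763 and 2044 in neurons 10, 9, 8 and 16, against a median of 113. At least 10 reads of both Pvalb and Lamp5 were found in 6 somas, a count of presence and not of level. In neurons 3, 11 and 1, named above for Pvalb, Lamp5 stood at 174, 0 and 3.11. Neuron 8, with 2763 of Lamp5, had 0 reads of Pvalb. At equal depth 8 somas held at least 10 reads of Pvalb and 9 of Lamp5.

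Tac1, the precursor of substance P, reached 6309 in neuron 15 and 2492 in neuron 7 and had 0 reads in 6 somas. Cck, the precursor of cholecystokinin, reached 3627 in neuron 10 and 2869 in neuron 8, and 11 somas held at least 10 reads of both Cck and Npy. Nos1, the neuronal nitric oxide synthase, was highest in neuron 9 at 686, and Penk, the enkephalin precursor, in neuron 2 at 5449.9, where the next soma had 463. Somatostatin (Sst) had at least 10 reads in no soma and 1 or more reads in 3, at no more than 5.65 normalized reads. Vip had at least 10 reads in 2 somas, Calb2 in 1 and Crh in 1.

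The glutamatergic identity list gave lower values than the GABAergic list, and fewer of its genes were read in every soma. Of its 20 genes, 4 (20%, against 16.3% of all genes) had a read in every soma. They were Camk2b, Grin1, Mef2c and Bcl11b, and none of these is restricted to principal cells. The summed level of Gad1, Gad2 and Slc32a1 lay above that of Slc17a7 and Slc17a6 in 16 of 16 somas. In the soma of neuron 2 the sums were 8149.9 and 1207 normalized reads, a ratio of 6.75, the lowest of all. The next lowest ratio was 166, in neuron 7, and neurons 12, 13 and 16 had 0 reads of either glutamate transporter. Slc17a7 had at least 10 reads in 10 somas, with 1207 in neuron 2 and 211 in neuron 5, the next highest.

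The soma of neuron 2 stood apart in this list. Neurod6, at chromosome 6, 55677822 to 55681263, was at 11886 there and at most 939.9, in neuron 5, elsewhere. Bhlhe22 was at 4921 against at most 697, and Zbtb20, a factor of hippocampal pyramidal cells, at 4549.9 against at most 1009.5. Tbr1 stood at 2700 against 80.0, Nrgn, the calmodulin-binding protein neurogranin, at 1814 against 130.3, and Neurod1 at 1300 against 496. This soma held 16 of the 20 genes at 10 reads or more, where the others held 4 to 15, and it also had the fewest reads and the lowest GABAergic mean. The mean level over the list was 385 ± 351 (SD, n = 16) with it and 299.8 ± 80.2 without it (n = 15). The soma of neuron 2 also had the most genes with at least 1 read, 18220, against 14870 in neuron 10, the next. At equal depth it held 8166 genes with at least 10 reads, against 7235 ± 886 over all 16 somas (SD). The part of the low depth or of this breadth in the values above was not tested.

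Most genes of glia and other cells were at or near 0 in most somas. Of 11 oligodendrocyte lineage, 10 microglial, 9 endothelial and mural and 10 proliferation genes, none had a read in all 16. The defining microglial markers Aif1 and Tmem119 reached at most 0.433 and 0.734 normalized reads and the oligodendrocyte marker Mog 7.14. Among microglial genes C1qc was the exception, at 987 in neuron 12 and 236 in neuron 2. The soma of neuron 5 held 965 of Olig1, of the oligodendrocyte lineage. In the soma of neuron 12 the endothelial receptor Flt1 also stood at 723, and Kdr stood at 563 in neuron 1. Of 12 astrocyte genes, Slc1a2 and Glul (16.7%, against 16.3% of all genes) had reads in every soma. Slc1a2, the glutamate transporter, ran from 1.30 to 2068, while Gfap and Aqp4 reached at most 92.9 and 109. Aldoc reached 2269 in neuron 11, with a median of 144, and Slc1a3 644 in neuron 1, with a median of 10.5. The mean over the astrocyte list was 151 ± 107, with 425 in neuron 3 as its highest, over the oligodendrocyte list 27.1 ± 37.7, over the microglial list 10.0 ± 25.9, over the endothelial list 15.5 ± 26.9 and over the proliferation list 55.0 ± 31.6 (SD, n = 16). The part of RNA from other cells in the levels below was not tested.

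**Figure D1:**
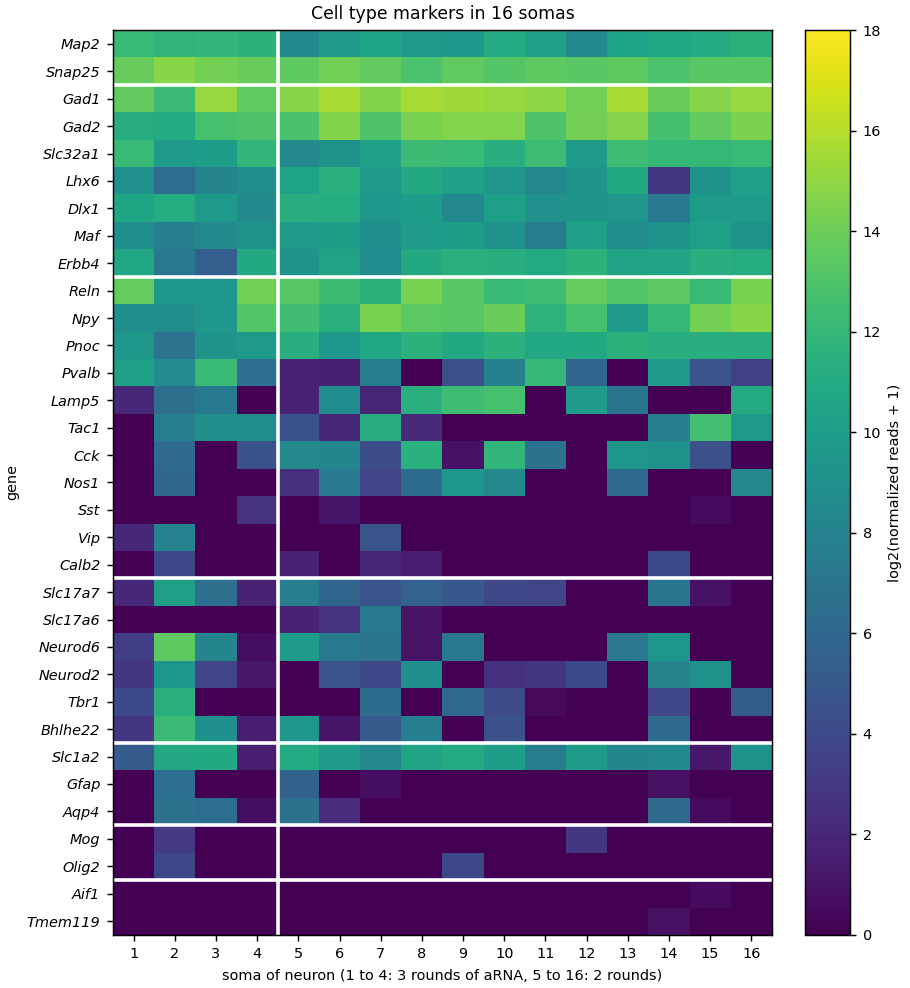
Markers of neuronal and other cell types (rows) in the 16 somas (columns), as log2(normalized reads + 1). White lines part the marker lists and the somas of 3 and 2 rounds. Gad1 and Gad2 are bright in every column, Sst, Vip and the microglial genes are dark in nearly all, and Neurod6, Tbr1 and Bhlhe22 are brightest in neuron 2.

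A shared core of genes was read in every soma. Of the 27093 genes with a read in any soma, 4425 (16.3%) had at least 1 read in all 16, 12119 had one in at least 8 and 5204 (19.2%) had one in a single soma. With at least 10 reads required in each of the 16, 2422 genes (8.94%) counted. At equal depth 3405 genes had a read in every soma, and without neuron 2 the number was 4479. The 12 somas of 2 rounds shared 4704 genes and the 4 somas of 3 rounds 8696. A gene has fewer somas to be read in for the second count, so these numbers do not compare rounds.

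Of 14 pan-neuronal genes 13 (92.9%) had a read in every soma, all but Nefm, which had 0 reads in neuron 13. So did 80 of 89 cytosolic ribosomal protein genes (89.9%), 77 of 86 nuclear genes of the respiratory chain and ATP synthase (89.5%) and 31 of 39 proteasome genes (79.5%). Of 26 synaptic vesicle genes 22 were in all somas. Of 23 cytoskeleton genes 20 were, and of 14 housekeeping genes 12, with B2m and Gusb missing in at least 1 soma. Receptors and channels were less complete, with 8 of 14 GABA receptor, 9 of 22 glutamate receptor, 11 of 23 sodium and calcium channel and 10 of 25 potassium and HCN channel genes. Of 16 long noncoding RNAs 6 were in every soma, of 14 stress genes 4 and of 20 immediate early genes 3.

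**Figure D2:**
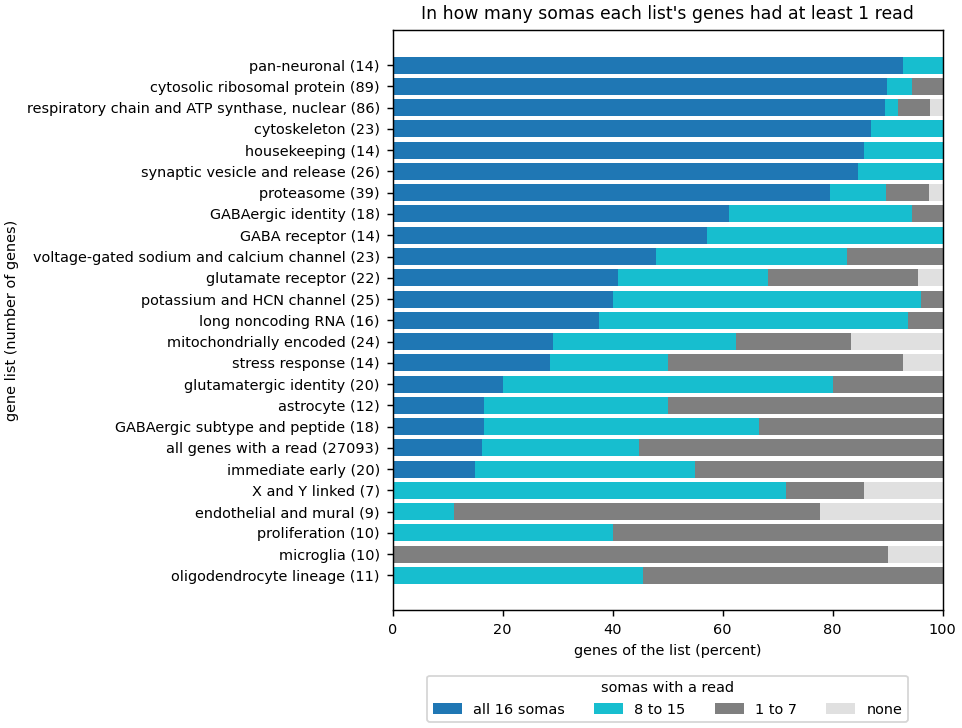
Share of each gene list (percent of its genes, number of genes in brackets) with at least 1 read in all 16 somas, in 8 to 15, in 1 to 7 or in none. The pan-neuronal, ribosomal and respiratory lists reach 92.9%, 89.9% and 89.5% in all somas, against 16.3% of all genes with a read, and the oligodendrocyte, microglial, endothelial and proliferation lists reach 0.

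The most abundant RNAs in the somas mixed mitochondrial ribosomal RNA, energy metabolism, cytoskeleton and GABA synthesis. The 10 most read genes of a soma took 8.85% ± 3.01 of its 3′UTR reads (SD, n = 16), the top 100 took 25.0% ± 2.89 and the top 1000 60.8% ± 2.27. Ranked by mean share of reads, the larger mitochondrial ribosomal RNA mt-Rnr2 came first at 1.61% ± 1.70 (SD, n = 16), from 0.212% in neuron 6 to 6.68% in neuron 16. The predicted noncoding genes Gm26924 and Gm26870 came next at 0.954% ± 1.07 (SD, n = 16) and 0.908% ± 2.01 (SD, n = 16). Gm26870, a lincRNA gene at chromosome 9, 3000282 to 3038313, took 8.11% of the reads in neuron 2 and 0.00174% in neuron 16, so its mean rests on few somas.

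The first protein-coding gene was the tubulin gene Tuba1a, at 0.787% ± 0.862 (SD, n = 16) and from 0.242% to 3.08%. Its highest levels, 203640 and 171341 normalized reads, were in neurons 2 and 1, against a median of 22223. Ndrg4 followed at 0.735% ± 0.309 (SD, n = 16) and Gad1 at 0.684% ± 0.373 (SD, n = 16), the latter from 0.0756% in neuron 2 to 1.29% in neuron 6. Gad2 was also among the 25, at 0.322% ± 0.223 (SD, n = 16). Energy genes in the 25 were the ADP/ATP carrier Slc25a4 (0.604%), the malate dehydrogenase Mdh1 (0.495%), the ATP synthase subunits Atp5g3 (0.456%) and Atp5b (0.265%), and Chchd2 (0.327%). Others were Gnas, the stimulatory G protein subunit (0.477%), Calm2, a calmodulin (0.366%), Atp1b1 of the sodium pump (0.352%), the SNARE protein Snap25 (0.278%) and the vesicle GTPase Rab3c (0.239%).

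A share of reads also depends on how much 3′UTR a gene has, so levels between genes were set side by side on each gene's most read 3′ end, a feature of the last 500 nucleotides of a transcript, in RPM, the reads scaled to the library total. On this scale Tuba1a had 9185 ± 9752, Ndrg4 8639 ± 3532 and Gad1 7978 ± 4323 (SD, n = 16), and the spread between somas was wider than the gaps between these levels. Gad2 had 3284 ± 2231 and ranked 15. Of the 25 highest genes on this scale, 20 were also among the 25 with the highest share of reads. The ends do not hold every gene's 3′UTR reads. Gm26924, second by share, had 0.0346 RPM on its end and rank 23828, and Pnoc had 0 reads on its end in all 16 somas, so a low rank on this scale does not show a low level. Among those that entered were Reln, at 2429.6 ± 1706 and rank 21, and Npy, at 2359.9 ± 2331 and rank 25. Ends closer than 500 nucleotides had been merged and the table gives no lengths, so some of these features may be longer than 500 nucleotides.

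**Figure D3:**
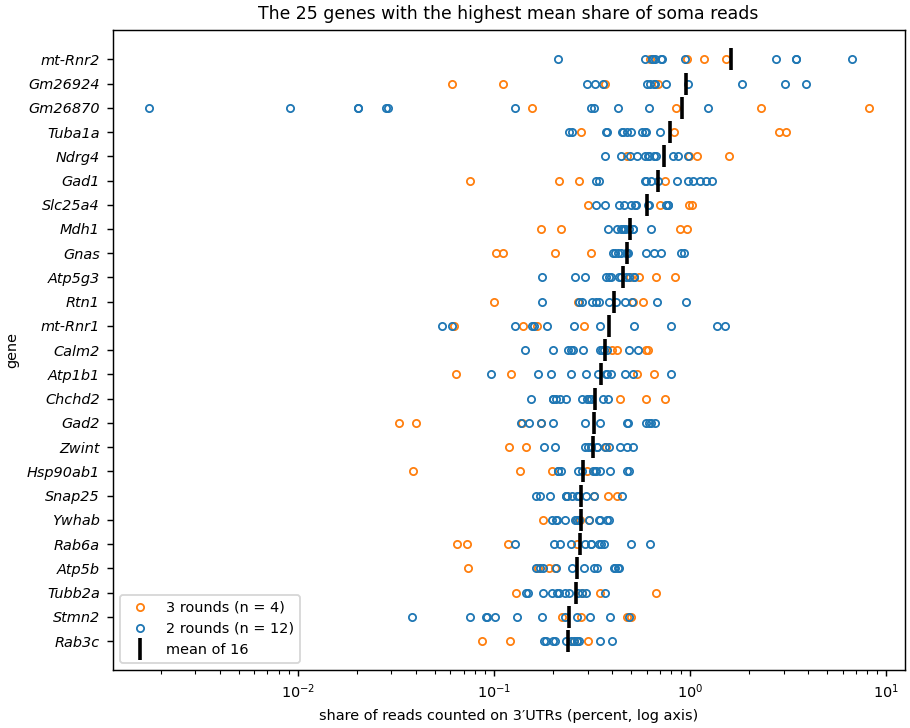
Share of 3′UTR reads (percent, log axis) of the 25 genes with the highest mean share, 1 circle per soma (orange for 3 rounds, blue for 2 rounds) and a bar for the mean of 16. The circles of Slc25a4 and Ywhab lie close together, while those of Gm26870 spread from 0.00174% to 8.11%.

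Variation between neurons was measured as the SD over the 16 somas of log2(normalized reads + 1), less the trend of that SD on the mean level, for the 9252 genes with at least 10 reads in at least 8 somas. The median SD was 2.24. Spike-in RNA, at the same dilution in 14 somas by their labels and scaled to each library's spike-in total, varied too, with SDs of 0.27 to 3.93 and a median of 2.19 over 17 spike-ins, against 1.99 for genes of like mean level, and 9 of the 17 had a smaller SD than such genes. In the 12 somas of 2 rounds the median SD was 2.33 for 16 spike-ins and 1.69 for genes of like mean. The most read spike-in had an SD of 0.27 at a mean of 12.3, where genes had 0.58. It is itself part of the total used to scale spike-ins, which can lower its SD, and genes were scaled in another way. At means of 10.5, 10.6 and 10.7 spike-ins had 0.54, 0.88 and 1.22, against 0.79, 0.77 and 0.75 for genes. Low spike-ins reached the SDs of low genes. The SD of a single gene therefore holds handling and amplification as well as the cell, and how much of each was not tested. Over 14 somas, spike-ins at means of 9.32 to 12.3 had SDs of 0.27 to 1.22, and those at lower means 2.07 to 3.93.

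The gene with the largest SD above trend was Hapln1, at chromosome 13, 89539796 to 89611652, which encodes a link protein that ties hyaluronan to proteoglycans in the matrix around neurons. Its SD was 4.51 at a mean of 10.3, where the trend gave 0.90. The most variable spike-in had 3.93 over 14 somas, at a far lower mean of 4.88. Spike-ins close to Hapln1 in mean, at 10.5, 10.6 and 10.7, had 0.54, 0.88 and 1.22. Over the 12 somas of 2 rounds Hapln1 had an SD of 3.25, below the 4.13 of the most variable spike-in there, whose mean was only 5.48. In these somas spike-ins at means of 9.82, 10.7, 10.9 and 11.1 had SDs of 0.52, 0.42, 1.28 and 0.86. Hapln1 stood at 1.88 and 9.34 normalized reads in neurons 4 and 1, and at 29.2, 42.3 and 168 in neurons 7, 3 and 15. It was at 507 in neuron 2, 638 in neuron 5, 3902 in neuron 11, 4388 in neuron 14 and 7643 in neuron 6. In neurons 12, 10, 16, 9, 13 and 8 it ran from 13433 to 39222. The 4 somas of 3 rounds were all among the 6 lowest, and within the 12 of 2 rounds the level still ran from 29.2 to 39222. Those 2 values are of neurons 7 and 8, which share a title letter.

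Many of the other 24 most variable genes were ordered over the somas as Hapln1 was or the other way round, with Spearman's rho of 0.5 or more for 9 and of -0.5 or less for 8. Over the 12 somas of 2 rounds alone, 6 of the 9 and 6 of the 8 kept a rho of that size. These are descriptions over cells that share amplification and depth, and all genes were chosen for their spread. Among the highest with Hapln1 were Cacna2d1, an auxiliary calcium channel subunit (rho 0.88 over 16 somas, 0.95 over 12), the secreted guidance protein Sema3c (0.86 and 0.83), the NMDA receptor subunit Grin3a (0.81 and 0.80), Nrsn1 (0.73 and 0.70) and Lamp5 (0.68 and 0.73). Grin3a was at 3617, 2789 and 2435 in neurons 13, 9 and 16 and had 0 reads in neurons 4 and 15. Cacna2d1 ran from 0 in neuron 4 and 0.433 in neuron 15 to 8131 in neuron 8, and Sema3c from 0 in neuron 3 to 4828 in neuron 8.

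The neurofilament genes, which build the intermediate filaments of large axons, ran the other way. Nefl (rho -0.93 with Hapln1 over 16 somas, -0.90 over 12) lies at chromosome 14, 68083863 to 68089095. It stood at 136, 233, 310, 531 and 537 normalized reads in neurons 9, 13, 8, 6 and 16 and at 23355, 18901, 18101 and 14898 in neurons 4, 7, 3 and 1. Nefm (rho -0.86 and -0.71) ran from 0 in neuron 13 to 16041 in neuron 1, and Nefh (rho -0.63 and -0.55) from 0 in neuron 12 to 8230.3 in neuron 3. The subunits followed each other, with rho 0.90 for Nefl and Nefm and 0.77 for Nefl and Nefh over 16 somas, and 0.80 and 0.73 over 12. Nefm overlaps Nefl on the opposite strand at chromosome 14, 68082590 to 68124846, and the counting used strand. The adhesion protein Negr1 (rho -0.66 and -0.62) and the neurexin ligand Nxph2 (rho -0.83 and -0.72) were ordered like the neurofilaments, with 4076 of Nxph2 in neuron 4 and 0 reads in neurons 10, 12 and 13.

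Noncoding RNAs held 3 of the 25 places. Meg3, an imprinted long noncoding RNA at chromosome 12, 109541001 to 109571726, ran from 6.13 in the soma of neuron 12 to 43771 in that of neuron 1, with a median of 3683. The nuclear RNA Malat1 ran from 0 reads in neuron 12 to 7967 in neuron 7, with a median of 1839. Meg3 and Malat1 followed each other with rho 0.91 over 16 and over 12 somas, and Meg3 and Snhg11 with rho 0.96 and 0.95, Snhg11 running from 47.7 in neuron 5 to 21164 in neuron 10. Gm26870, the third, was ordered against the number of reads of the library (rho -0.91, n = 16), and the other 24 genes lay between -0.32 and 0.45. It stood at 536086 and 138145 in neurons 2 and 1, and at 79.2 in neuron 16.

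Of the remaining members, Rph3a, a Rab effector of synaptic vesicles, was at 0, 21.4, 0 and 3.76 in the 4 somas of 3 rounds and at 49.7 to 2345 in the 12 of 2 rounds, where its SD was 1.54 against 3.82 over all 16. Trpc5, a cation channel, reached 3996 in neuron 12 and had 0 reads in neurons 1, 4 and 15. Mylk, the myosin light chain kinase, reached 4675 in neuron 3 and had 0 reads in neurons 5 and 13. Dusp4, a MAP kinase phosphatase, reached 2523 in neuron 6 and had 0 reads in neurons 11 and 12. Chmp5, of the endosomal sorting complex, stood at 0.866 and 4.54 in neurons 15 and 5 and at 2925 in neuron 3. Sel1l3, Nrep, Clstn2, Bfar and Nyap2 completed the 25, with SDs of 3.19, 3.42, 3.61, 3.17 and 4.37. With the squared coefficient of variation in place of the SD of log2 values 2 of the 25 genes stayed in the top 25, and with exon counts 15 did.

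**Figure D4:**
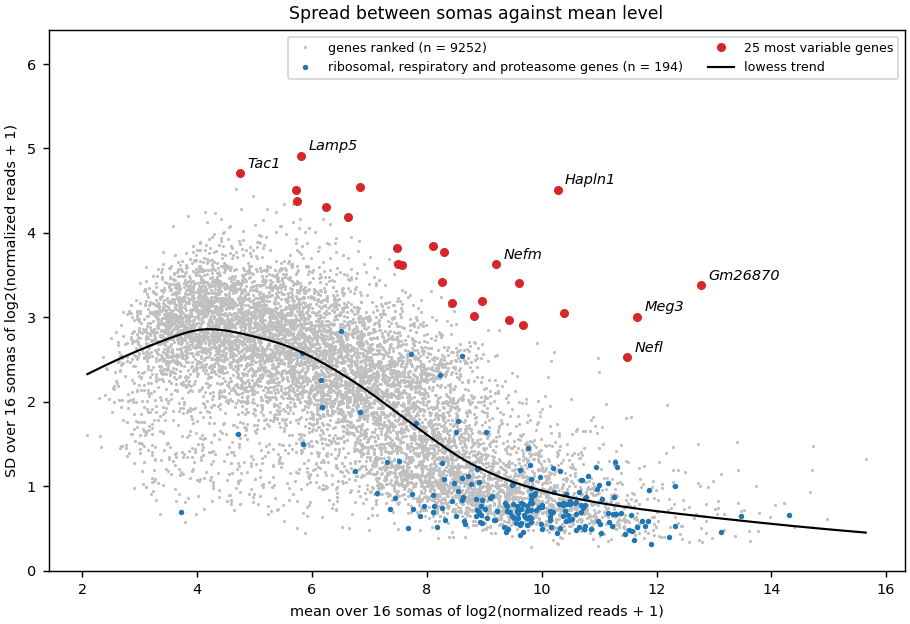
SD against mean of log2(normalized reads + 1) over the 16 somas for the 9252 genes ranked, with the lowess trend, the 25 most variable genes in red and ribosomal, respiratory and proteasome genes in blue. Hapln1 stands highest above the trend, with an SD of 4.51 at a mean of 10.3, and most blue points lie under the trend.

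**Figure D5:**
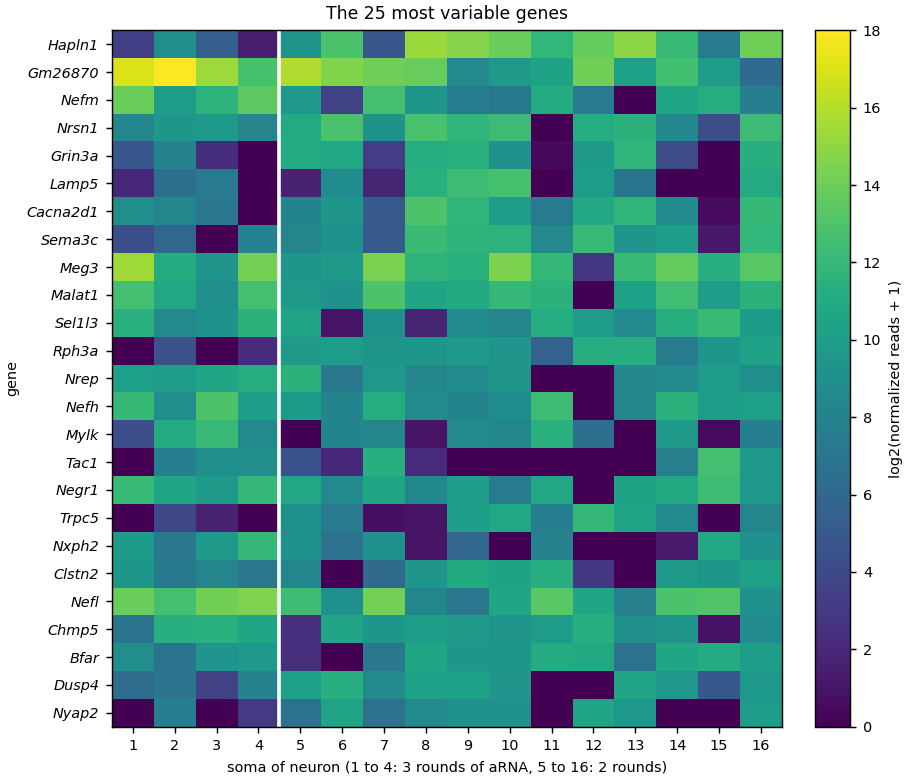
The 25 most variable genes (rows, in order of SD above trend) in the 16 somas (columns, by neuron number), as log2(normalized reads + 1). In neurons 7 and 15 the rows of Hapln1, Grin3a, Lamp5, Cacna2d1 and Sema3c are dark and those of Nefm and Nefl bright, and in neurons 8, 9 and 16 the first 5 are bright and Nefl is darker.

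Spread was described for each gene list against the same trend. The median SD was 3.79 for the 9 ranked genes of the subtype and peptide list, all of which lay above the trend, and 1.66 for the 16 ranked GABAergic identity genes, 13 of them above the trend (81.3%), against 49.4% of all genes ranked. Other cell type lists gave similar counts, with 9 of 11 glutamatergic identity genes above the trend (81.8%, median SD 3.08) and 5 of 5 ranked astrocyte genes (median SD 3.14). Long noncoding RNAs had a median of 2.77, with 11 of 13 above the trend. Glutamate receptor genes had 1.88 (9 of 12 above), sodium and calcium channel genes 2.03 (15 of 19), potassium and HCN channel genes 2.20 (14 of 20) and GABA receptor genes 1.53 (9 of 12). Synaptic vesicle genes were more even, at 0.95, with 44.0% above the trend. Ribosomal protein genes had 0.75 (22.2% above), nuclear respiratory chain genes 0.66 (17.9%) and proteasome genes 0.79 (11.4%). These counts describe the lists, and the genes of a list are not independent.

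Within the receptor and channel lists the subunits differed in how they were spread. The AMPA receptor subunit Gria1 had reads in every soma, from 829.6 in the soma of neuron 3 to 7566 in that of neuron 8, with a median of 2969.7, whereas Gria3 had 0 reads in neurons 8, 9, 13 and 16 and reached 2210.2 in neuron 1. The NMDA receptor subunit Grin2a ran from 334 in the soma of neuron 7 to 3191 in that of neuron 16, with a median of 2215, and the obligatory subunit Grin1 from 7.14 in the soma of neuron 2 to 877 in that of neuron 15, with a median of 196. The GABA-B receptor subunit Gabbr1 ran from 1269.8 in the soma of neuron 3 to 6371 in that of neuron 13, with a median of 4065. Among potassium channels Kcna1 ran from 531 in the soma of neuron 6 to 6844 in that of neuron 11, with a median of 2090.4. Kcnc1, a fast delayed rectifier channel of fast-spiking cells, reached 3166 in neuron 11, had 0 reads in neurons 5 and 6, and was ordered like Pvalb (rho 0.74 over 16 somas, 0.81 over 12). The synaptotagmin Syt2 was also ordered like Pvalb (rho 0.81 and 0.69), with 1194 in neuron 11, 324 in neuron 1, 319.6 in neuron 3 and 0 reads in 7 somas.

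Of the 15 genes with the smallest SD relative to the trend, 10 were processed pseudogenes, such as Rpsa-ps10, Rpl3-ps1 and Rpl19-ps11, against 168 of the 9252 genes ranked. Their levels were low and even, as for Gm9385, at 32.6 to 86.7 normalized reads. The others were the protein-coding genes Sla2, Ndufs5 and Gm11361, the lincRNA Gm10076 and Gm12141, which had no match in the annotation. Processed pseudogenes are copies of other transcripts, and reads that a copy and its parent could share were not told apart beyond the authors' use of uniquely mapped reads.

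Presence itself switched between somas for a part of the well expressed genes. Of 7819 genes with at least 100 normalized reads in at least 4 somas, 734 (9.39%) had 0 reads in at least 4 others. From the lists these included the peptides Cck, Tac1 and Penk, the subtype marker Lamp5, the synaptotagmin Syt2, the AMPA subunit Gria3 and the potassium channel Kcna4. A count of 0 in a library of 925525 to 21169974 reads bounds the reads of that library and not the RNA of the cell, since a molecule lost before amplification leaves no read.

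Over the 9252 genes ranked, a pair of somas had a median Spearman's rho of 0.58, from 0.41 to 0.82 over 120 pairs. The closest pair was neurons 9 and 10. The soma of neuron 12 was least like the others, with a median rho of 0.46. The median was 0.59 for pairs of 2-round somas, 0.66 for pairs of 3-round somas and 0.54 for 1 of each. Pairs share cells, so these are descriptions with no test.

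Beside the spike-in given as absent for neurons 1 and 2 and the title letters, the labels give the rounds of amplification as a difference between the somas, and the 4 somas of 3 rounds were compared with the 12 of 2 rounds to see which values move with it. Genes with at least 10 reads numbered 9248 ± 1294 and 9192 ± 1797 (SD, n = 4 and 12, two-sided exact permutation test over 1820 splits, p = 0.963). Reads on 3′UTRs were 3113300 ± 2802530 and 8706550 ± 5553950 (exact p = 0.0549, adjusted over 4 measures 0.22), the 10 most read genes took 11.0% ± 4.08 and 8.14% ± 2.35 (exact p = 0.133, adjusted 0.266), and mitochondrially encoded genes took 1.27% ± 0.453 and 2.27% ± 2.41 (exact p = 0.531, adjusted 0.708). The smallest p these groups allow is 0.0011, and none of the 4 measures passed.

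Of 12119 genes tested with edgeR's quasi-likelihood test, 67 (0.553%) were higher and 31 (0.256%) lower with 3 rounds at an adjusted p of at most 0.05. With median-of-ratios size factors in place of TMM the split was 107 and 29, and with DESeq2 it was 219 and 295. Without neuron 1 it was 33 and 8, and without neuron 2 it was 17 and 5, so these counts rest largely on 2 somas, which share a title letter and the label of no spike-in. Tubb2b, a tubulin gene, had 28651, 39899.5, 2952 and 3201 in the somas of neurons 1 to 4 and 659 to 2717, with a median of 1242, in the 12 somas of 2 rounds (log2 difference 3.49 ± 0.44, SE, edgeR adjusted p = 0.00082). Its groups did not overlap, as for 0.809% of genes tested that were higher with 3 rounds, but the values of neurons 3 and 4 lay just above the highest of the 12. Rgs10, a regulator of G protein signalling, had 153, 279, 618 and 217 in the somas of neurons 1 to 4 and 1514 to 9130, with a median of 3664, in the 12 somas of 2 rounds (-3.78 ± 0.51, adjusted p = 0.00119 in edgeR), and its groups did not overlap either, as for 0.635% of genes that were lower.

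Others that were higher with 3 rounds included the mitochondrial genes Cox7c (log2 difference 2.23 ± 0.33, edgeR adjusted p = 0.00259) and Ndufb3 (2.11 ± 0.34, edgeR adjusted p = 0.00427), the tubulin chaperone Tbca, the dynein chain Dync1i1, the autophagy protein Map1lc3b, Ywhag, Rraga, Rps23 and Zmat2. The last 4 did not pass without neuron 2. Lower were Rph3a (-7.92 ± 1.22, edgeR adjusted p = 0.00338), the glycolytic enzyme Aldoa (-2.10 ± 0.35, edgeR adjusted p = 0.00652), Clip3, Tmem59l, Atp5d, Mgll, Prkaca, Cacnb3 and Rnasek, of which the last 7 did not pass without neuron 2. Of the other lists, 1 of 14 pan-neuronal genes (Gap43), 2 of 23 cytoskeleton genes (Tuba1a and Tubb2b), 3 of 84 ribosomal protein genes and 4 of 79 nuclear respiratory chain genes were higher, with list medians of 0.14, 0.24, -0.20 and -0.23, against 0.553% of all genes called higher. Gap43 passed in 1 of the 4 fits that left out a soma, and Tuba1a, Cox6c and Ndufa1 in 2. Rpl23, Rps23 and Rps24 passed in 3, and Tubb2b, Cox7c and Ndufb3 in all 4. Lower, against 0.256% of all genes, were Pnoc among 12 subtype and peptide genes, Gabrb2 among 14 GABA receptor genes, Gapdh among 14 housekeeping genes, Cacnb3 among 19 sodium and calcium channel genes, Rab3a among 26 synaptic vesicle genes and Atp5d among 79 respiratory genes, with list medians of -1.81, -0.38, -0.69, -0.39, -0.52 and -0.23. Of these 6, Pnoc, Gabrb2 and Rab3a passed in 1 of the 4 fits that left out a soma, Gapdh and Cacnb3 in 2 and Atp5d in 3. In edgeR 0 of 17 tested GABAergic identity genes passed (median log2 difference -1.01, against -0.14 for all genes), 3 had an unadjusted p under 0.05, and DESeq2 called 1, Gad2. Of 16 glutamatergic identity genes 0 passed in edgeR (median 1.80), 5 had an unadjusted p under 0.05, and DESeq2 called 1, Grin1. Over all genes 1406 had an unadjusted p under 0.05 in edgeR. DESeq2 called 514 genes in either direction. These held 17 of 79 respiratory, 9 of 84 ribosomal, 5 of 23 cytoskeleton and 4 of 26 synaptic vesicle genes. Rounds, title letter, culture and day cannot be told apart here, since each letter lies within 1 number of rounds and the labels give no culture or day.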

How the data were processed

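Per the labels and the study's methods, stranded libraries of amplified RNA were sequenced on a HiSeq or NextSeq (which one per soma is not given in the sources used here). After trimming, the authors mapped reads to mm10 with STAR 2.4.0 and counted unique ones by strand with VERSE. The deposited values are read counts without molecular identifiers, on the union of 3′UTRs per gene (44081 genes), on 3′ ends, and on exons (23453 genes) and 92 ERCC spike-ins. The 3′ end table carries no coordinates, so ends were compared as features of 500 nucleotides.

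Counts were divided by median-of-ratios size factors (Python 3.11.15, NumPy 2.4.6, pandas 2.3.3, SciPy 1.17.1, statsmodels 0.14.6). Variability was ranked among genes with 10 reads in at least 8 somas, with a pseudocount of 1 and a lowess fraction of 0.3. In simulated counts of 9196 genes, 167 of 200 genes made variable ranked in the top 200. Rounds of amplification were compared with edgeR 4.0.16 (R 4.3.3, TMM, robust quasi-likelihood test, Benjamini-Hochberg, threshold 0.05) over genes with a read in at least 8 somas. On simulated counts of this comparison, 3 of 192 genes changed by a log2 of 2 and 56 of 191 changed by a log2 of 4 were called.

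Genes named were list members, the 25 most abundant, the 25 most and 15 least variable, and the 10 with the smallest p in each direction between rounds. The members and the 24 gene lists were chosen with earlier results of these data known, and the gene pairs correlated and the genes singled out in a soma after their values were seen. Positions came from GENCODE (GRCm38). Alternatives were DESeq2 1.42.0, other size factors, filters and depths, exon counts, and leaving out somas. A few values of list members are not reported here.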

Additional observations from a re-analysis of the deposited data

Results flagged for a closer look

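Spike-in transcripts were counted in the somas of neurons 1 and 2, whose labels give no spike-in: 59 and 80 reads. The study's methods describe addition to every tube, so labels and methods differ for these somas. The 14 somas with spike-in held 4347 to 95838 such reads. These 2 values were flagged as signal in libraries labelled as having none, and their part in other values was not tested. Among the 4 somas of 3 rounds, 4 library measures and 20 named genes were examined for a value that stood apart (24 groups). None did by Dixon's criterion, where chance alone would flag about 1 in 20.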

How the results depend on the processing

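Genes detected per soma numbered 12925 with 1 read required and 7235 at equal depth. Genes present in every soma numbered 2422 with 10 reads required. Of the 25 most variable genes, 2 stayed with the squared coefficient of variation and 15 with exon counts. Genes that differed between rounds numbered 2735 (2601 higher, 134 lower) with no filter beyond 1 read and 514 (219 and 295) with DESeq2. With median-of-ratios size factors 107 were higher and 29 lower. With exon counts 31 were higher and 41 lower, where the main setting had 67 and 31. Leaving out each soma of 3 rounds gave 22 to 117 genes, 17 to 79 higher and 5 to 38 lower, with the lowest counts without neuron 2. The difference in genes detected between rounds turned to -82.7 with exon counts and ran from -530 to 417 when somas were left out, negative without neurons 1 and 4. The cause of these changes was not tested. Mitochondrial shares could not be had from exon counts, which list no mitochondrial gene. Of the values for named genes between rounds, 145 kept their direction and side of the threshold and 15 lost significance. Of the counts of somas with a marker, 53 stayed and 3 moved. The settings without the soma of neuron 2 in descriptive results were chosen after seeing the data. No paired analysis was possible because each soma is a different neuron and the groups of rounds share none. Somas with few reads limit what can be called absent.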

Other observations

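Immediate early genes, which neurons switch on after activity, had their highest list mean in neuron 2. Their mean level over 20 genes was 169 ± 121 normalized reads (SD, n = 16), with 470 in neuron 2 and 38.7 in neuron 9. It was 315 ± 142 in the 4 somas of 3 rounds, neuron 2 among them, and 120 ± 65.1 in the 12 of 2 rounds (SD). Fosl2 lay above the list mean, at 2781 ± 1470 and 677 ± 662 in these groups (SD). Egr1 stood at 2679 in neuron 2 and 677 in neuron 3, and at no more than 165 in the others. Egr3 stood at 1121 and 131 in the same 2 somas and had 0 reads in the other 14. Nr4a3 had another pattern, with 2636 in neuron 13, 2125 in neuron 5 and 1643 in neuron 8 against a median of 304.

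Stress genes had a mean of 319 ± 169 over 14 genes (SD, n = 16), with 737 in neuron 1 as the highest and 165 in neuron 12 as the lowest. The chaperone Hspa5 was at 5357 in neuron 1 and 21.5 in neuron 12, with a median of 1127. Against its low mean, neuron 12 had the highest values of Ddit3 and Sesn2, 622 and 1091, while Malat1 and Gas5 had 0 reads.

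At least 10 reads of a Y-linked gene were found in 11 somas, and 2 of these also held at least 10 reads of Xist, the RNA of the inactive X chromosome. Xist without a Y-linked gene was found in 2 somas, those of neurons 10 and 16, and neither in 3.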
